A study of Arabidopsis thaliana with 4 samples.

Results

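The genes described here are the core and linker histone genes of Arabidopsis thaliana, 44 loci chosen by locus identifier from the 33977 gene rows of each count table. They comprise 8 genes for H4, 5 for H3.1, 3 for H3.3, 1 for the centromeric CENH3, 4 for canonical H2A, 2 for H2A.X, 3 for H2A.W, 4 for H2A.Z, 11 for H2B and 3 for linker H1. Transcripts were measured by mRNA sequencing in 2 plants that overexpress PPD3 in the Columbia-0 background (PPD3_OE) and in 2 wild-type Columbia-0 plants (Col-0), with 1 library from each plant. All 4 plants grew in peat mix at 22 °C with 16 h of light a day, with no further treatment named, and were frozen at bolting. One label calls the material whole plants and another calls it rosettes. The promoter that drives PPD3, the number of lines the PPD3_OE plants stand for and the age of the plants in days are not stated in the labels.

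H2A, H2B, H3 and H4 form the protein core around which DNA is wrapped in a nucleosome, and H1 binds the linker DNA at its edge. Genes for H4, H3.1 and the canonical H2A and H2B are known to be transcribed mainly in S phase, when new DNA has to be packaged, whereas H3.3 is made and exchanged into chromatin throughout the cell cycle. Histone mRNAs of plants carry poly(A) tails, so a library made from polyadenylated RNA can capture them. Among the variants, H2A.Z is known for its place at the start of genes and at responsive genes, H2A.W for silent heterochromatin, H2A.X for marking DNA breaks, and H1.3 for its induction by drought and abscisic acid.

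An octamer, CGCGGATC or GATCCGCG on the other strand, and a hexamer, ACGTCA or TGACGT on the other strand, are known elements of plant histone promoters. Promoters are given here as the 250 bases before the annotated gene start in the RefSeq annotation of TAIR10.1. The octamer stood in the promoters of 10 of the 44 histone genes (22.7%), against 37 of all 27443 promoters (0.135%). The hexamer stood in 11 of 44 (25%), against 2110 of 27443 (7.69%), and 8 of those 11 were H2B genes. The 6 promoters below belong to genes that the results turn on. They are 3 genes with an octamer that stood higher in PPD3_OE plants (AT1G09200 of H3.1, HTA10 of canonical H2A, HTA6 of H2A.W), an H2B gene with the hexamer (HTB2), an H3.3 gene with an octamer (AT4G40040), and the H1.3 gene HIS1-3 with neither. Capitals mark the octamer or the hexamer on either strand. Each is read 5′ to 3′ on the strand of its gene.
AT1G09200, chr1:2972335-2972584, minus strand: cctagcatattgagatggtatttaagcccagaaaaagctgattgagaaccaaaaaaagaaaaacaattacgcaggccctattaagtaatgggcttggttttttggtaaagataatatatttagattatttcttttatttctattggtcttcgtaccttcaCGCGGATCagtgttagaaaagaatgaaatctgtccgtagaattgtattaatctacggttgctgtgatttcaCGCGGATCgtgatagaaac
HTA10 (AT1G51060), chr1:18926561-18926810, plus strand: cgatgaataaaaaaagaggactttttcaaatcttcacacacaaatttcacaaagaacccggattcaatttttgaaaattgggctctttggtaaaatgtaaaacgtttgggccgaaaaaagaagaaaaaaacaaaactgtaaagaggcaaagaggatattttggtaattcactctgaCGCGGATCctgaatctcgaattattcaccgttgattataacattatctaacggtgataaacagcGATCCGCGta
HTA6 (AT5G59870), chr5:24116221-24116470, minus strand: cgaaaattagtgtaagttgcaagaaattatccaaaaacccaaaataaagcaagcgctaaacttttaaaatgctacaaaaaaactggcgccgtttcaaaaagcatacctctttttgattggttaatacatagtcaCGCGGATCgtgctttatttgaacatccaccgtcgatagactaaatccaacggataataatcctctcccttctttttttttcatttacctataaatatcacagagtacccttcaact
HTB2 (AT5G22880), chr5:7652715-7652964, minus strand: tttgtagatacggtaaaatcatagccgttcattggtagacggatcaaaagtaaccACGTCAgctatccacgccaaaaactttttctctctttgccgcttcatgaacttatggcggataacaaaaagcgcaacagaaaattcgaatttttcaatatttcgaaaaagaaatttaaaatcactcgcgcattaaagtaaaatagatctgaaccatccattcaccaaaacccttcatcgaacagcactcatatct
AT4G40040, chr4:18558946-18559195, minus strand: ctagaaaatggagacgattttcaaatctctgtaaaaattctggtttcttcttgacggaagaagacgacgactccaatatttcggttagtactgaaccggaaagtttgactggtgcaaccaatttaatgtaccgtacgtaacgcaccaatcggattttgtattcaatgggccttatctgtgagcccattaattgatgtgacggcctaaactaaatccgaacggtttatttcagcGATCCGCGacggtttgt
HIS1-3 (AT2G18050), chr2:7845673-7845922, plus strand: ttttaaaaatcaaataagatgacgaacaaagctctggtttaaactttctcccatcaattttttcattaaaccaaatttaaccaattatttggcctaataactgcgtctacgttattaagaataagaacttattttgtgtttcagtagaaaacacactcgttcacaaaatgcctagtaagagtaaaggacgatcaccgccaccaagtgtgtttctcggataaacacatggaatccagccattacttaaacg

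The libraries held 40727172 and 34793720 gene counts in PPD3_OE plants and 36990201 and 33771093 in Col-0 plants. The targeted gene PPD3 (AT1G76450) was at 2836 and 3264 CPM (counts relative to the library's total, scaled by TMM) in PPD3_OE plants, against 103 and 70.7 CPM in Col-0 plants, a 35.2-fold difference. Summed CPM of 4 green leaf genes was 20260 and 23200 in PPD3_OE plants, against 17080 and 12300 in Col-0 plants. These genes did not move alike. RBCS1A and CA1 were higher in both PPD3_OE plants than in both Col-0 plants, while LHCB1.1 and RCA overlapped between genotypes. CA1 was at 3075 and 3026 CPM in PPD3_OE plants and at 1901 and 812 CPM in Col-0 plants. Of 3 root genes, PYK10 was at 46.6 and 32.2 CPM in PPD3_OE plants and 44.9 and 45.6 CPM in Col-0 plants, SCR was at 31.0 and 37.0 CPM in PPD3_OE plants and 31.3 and 26.2 CPM in Col-0 plants, and PLT1 had no count in any library. The labels name no separate lines or batches. The p-values here measure the spread between the plants of a genotype, and any part of lines or batches in it cannot be told apart.

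Histone genes took 0.263% and 0.291% of gene counts in PPD3_OE plants, against 0.230% and 0.228% in Col-0 plants. Most of them stood higher in PPD3_OE plants: of the 42 members with enough counts to test, 33 had a positive log2 fold change (PPD3_OE over Col-0) and 9 a negative one. Their median log2 fold change was 0.61, beside 0.013 over all 19919 genes tested. The negative values belonged to the 3 H3.3 genes, 1 canonical H2A gene, 1 H2A.W gene, 2 H2A.Z genes and 2 H1 genes, and among these H1.3 was 13.2-fold lower. Of the remaining members, the H2B locus AT1G08170 had 0 and 2 counts in PPD3_OE plants and 7 and 4 in Col-0 plants. The H2B locus AT5G02570 had 0 counts in every library, where the floor of 3 counts was 0.0749 to 0.0875 CPM by library. It lies within HTA12 (AT5G02560) on the other strand, and these libraries do not tell the strands apart. Reads over both genes would not count for either, so 0 counts do not bound its level.

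edgeR's quasi-likelihood test with Benjamini-Hochberg adjustment over 19919 genes called no member at an adjusted p under 0.05, where 0% of all genes were called higher and 0.00502% lower. At unadjusted p under 0.05 the same test counted 26 members higher and 2 lower, where the shares of all genes were 16.2% and 17.0%. At an adjusted p under 0.10 it called 25 of 42 members higher (59.5%), against 9.96% of all genes, and 2 of 42 lower (4.76%), against 11.4% of all genes. DESeq2 at an adjusted p under 0.05 called 22 members higher (52.4%), against 8.35% of all genes, and 2 lower (4.76%), against 9.65%. The 2 PPD3_OE plants both stood above the 2 Col-0 plants for 31 members (73.8%), against 33.9% of all genes, and below them for 4 members (9.52%), against 33.0%. The calls rest on few plants. Without PPD3_OE plant 1, edgeR called 16 members higher at 0.10, beside 791 of all genes, and without any one of the other 3 plants it called 0, as it then called 0 of all genes. DESeq2 called 12 members and 465 of all genes higher without PPD3_OE plant 1, and 3 and 299 without PPD3_OE plant 2. It called 20 members and 2352 of all genes higher without Col-0 plant 1, and 4 and 156 without Col-0 plant 2. With all plants these counts were 22 and 1703 by DESeq2, and 25 and 1984 by edgeR. In the following, "called" refers to edgeR's adjusted p under 0.10 unless DESeq2 is named.

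**Figure D1:**
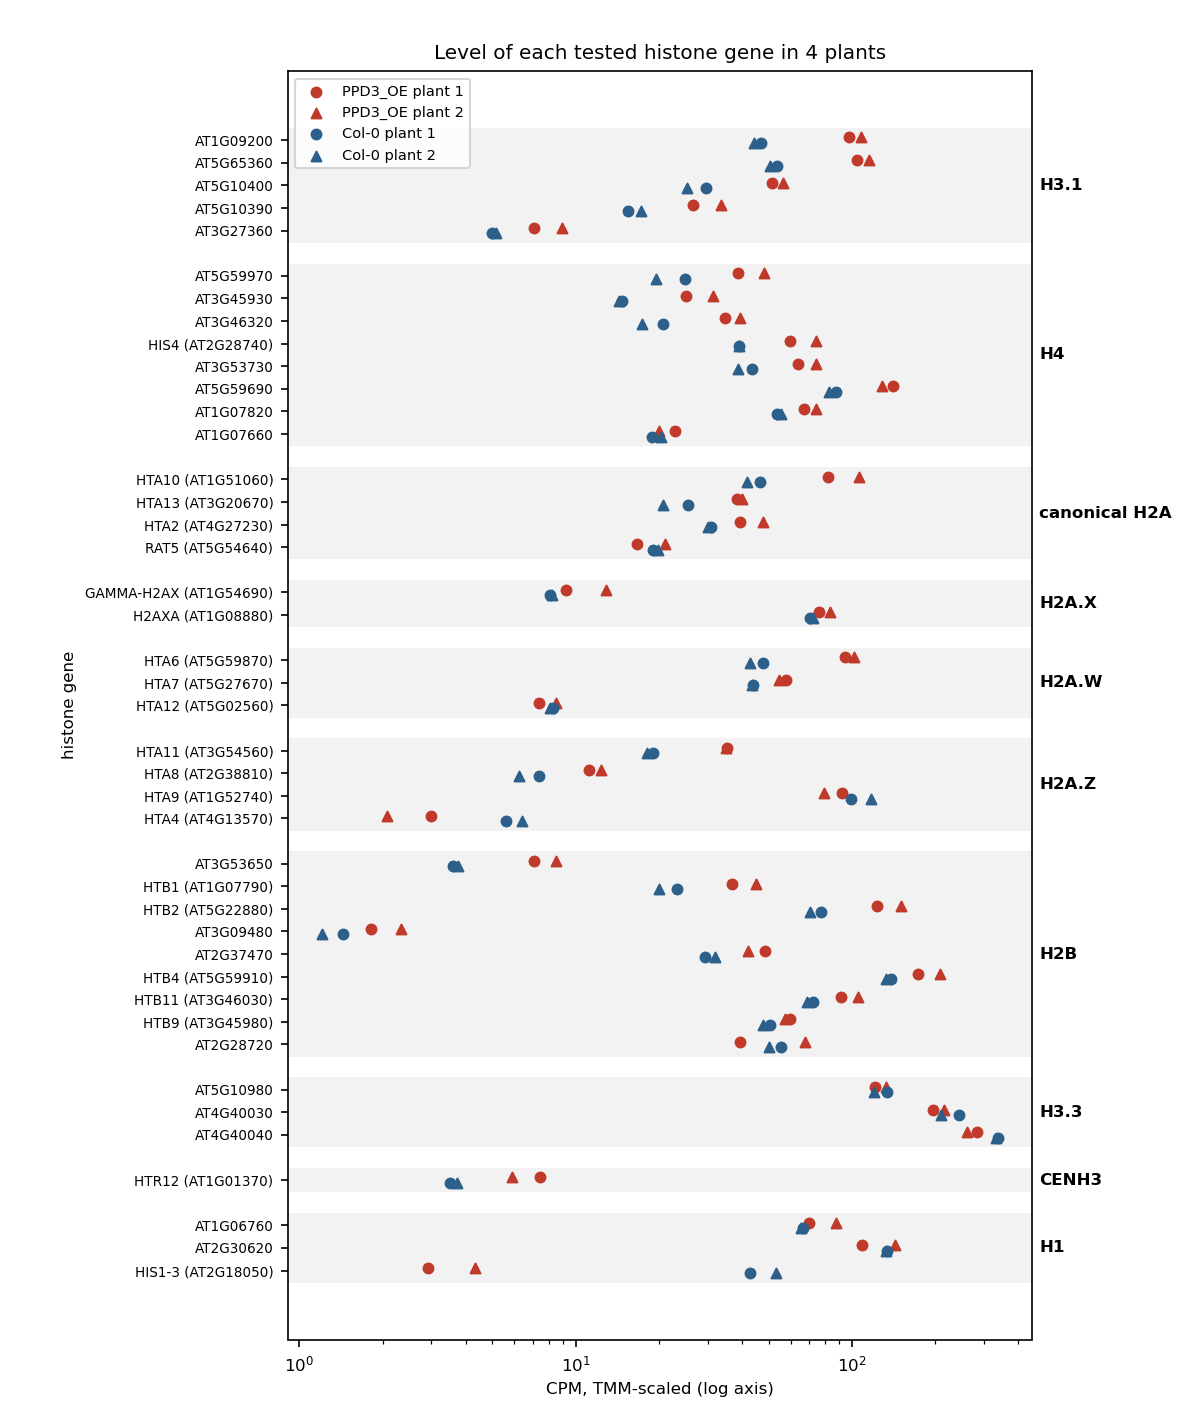
Level of each of the 42 tested histone genes in each plant, in TMM-scaled CPM on a log axis, with genes grouped by histone class. The PPD3_OE points lie right of the Col-0 points for all 5 H3.1 genes and 7 of 8 H4 genes, overlap or lie left of them for the H3.3 genes, and lie far to the left for HIS1-3.

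All 5 H3.1 genes, which encode the H3 laid down behind the replication fork by the chaperone CAF-1, stood higher in PPD3_OE plants, with no overlap between the genotypes. Their summed level was 286.9 and 321.7 CPM in PPD3_OE plants, against 150.5 and 142.4 CPM in Col-0 plants, a ratio of 2.08. The median log2 fold change was 0.97, with a range of 0.65 to 1.17. AT1G09200 was at 97.8 and 108 CPM in PPD3_OE plants and at 47.0 and 44.2 CPM in Col-0 plants. Its mean of 103 ± 7.13 CPM in PPD3_OE plants, against 45.6 ± 2.01 CPM in Col-0 plants (SD, n = 2 each), gives a log2 fold change of 1.17 ± 0.11 (SE; edgeR adjusted p = 0.0618, DESeq2 adjusted p = 1.69e-10). AT5G65360, the most abundant H3.1 gene, was at 104 and 115 CPM in PPD3_OE plants and at 53.4 and 50.6 CPM in Col-0 plants (log2 fold change 1.08 ± 0.11). Both genotypes' plants thus formed tight pairs for these genes, with the PPD3_OE pair at about the same distance above the Col-0 pair. AT5G10400 reached 51.2 and 56.2 CPM in PPD3_OE plants, against 29.6 and 25.2 CPM in Col-0 plants (log2 fold change 0.97 ± 0.13). AT5G10390 reached 26.5 and 33.6 CPM in PPD3_OE plants, against 15.5 and 17.2 CPM in Col-0 plants (0.88 ± 0.16). AT3G27360 was the least abundant and moved least, at 7.06 and 8.90 CPM in PPD3_OE plants, against 4.98 and 5.17 CPM in Col-0 plants (0.65 ± 0.18, edgeR adjusted p = 0.0938, DESeq2 adjusted p = 0.0773). It overlaps another gene on its own strand, AT3G27380, so reads over both would not count for either. edgeR called all 5 higher and DESeq2 called 4.

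The 8 H4 genes, which all encode the same protein of 103 residues in the TAIR10.1 annotation, all had positive log2 fold changes, and 7 were called higher by edgeR and 6 by DESeq2. Their summed level was 452.8 and 489.3 CPM in PPD3_OE plants, against 302.7 and 287.7 CPM in Col-0 plants, a ratio of 1.60. The median log2 fold change was 0.76, with a range of 0.13 to 0.97. AT5G59690, the most abundant H4 gene, was at 141 and 128 CPM in PPD3_OE plants and at 87.5 and 82.8 CPM in Col-0 plants (log2 fold change 0.66 ± 0.11, edgeR adjusted p = 0.0627, DESeq2 adjusted p = 9.15e-04). AT3G46320 was at 34.6 and 39.2 CPM in PPD3_OE plants and at 20.7 and 17.4 CPM in Col-0 plants (0.95 ± 0.14, edgeR adjusted p = 0.0618). AT5G59970 was at 38.8 and 48.2 CPM in PPD3_OE plants and at 24.9 and 19.5 CPM in Col-0 plants (0.97 ± 0.19). In these genes every PPD3_OE plant was above every Col-0 plant. HIS4 (AT2G28740), AT3G45930 and AT3G53730 had log2 fold changes of 0.78 ± 0.14, 0.96 ± 0.15 and 0.75 ± 0.13. AT1G07820, at 67.3 and 74.1 CPM in PPD3_OE plants and 53.5 and 55.6 CPM in Col-0 plants, stood just inside the threshold (0.38 ± 0.11, edgeR adjusted p = 0.0997, DESeq2 adjusted p = 0.0936). AT1G07660 was the H4 gene that overlapped between genotypes, at 22.8 and 20 CPM in PPD3_OE plants and 18.9 and 20.4 CPM in Col-0 plants (0.13 ± 0.13, edgeR adjusted p = 0.513). So genes for 1 identical protein ranged in log2 fold change from near 0 to near 1. The coding sequences of the 8 genes were 78.8% to 98.1% identical in pairs. Every 150-base exonic window, the length of a read, was unique to its gene for all histone genes but AT3G45930, with 98% of windows unique, and AT3G46320, with 97.8%.

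**Figure D2:**
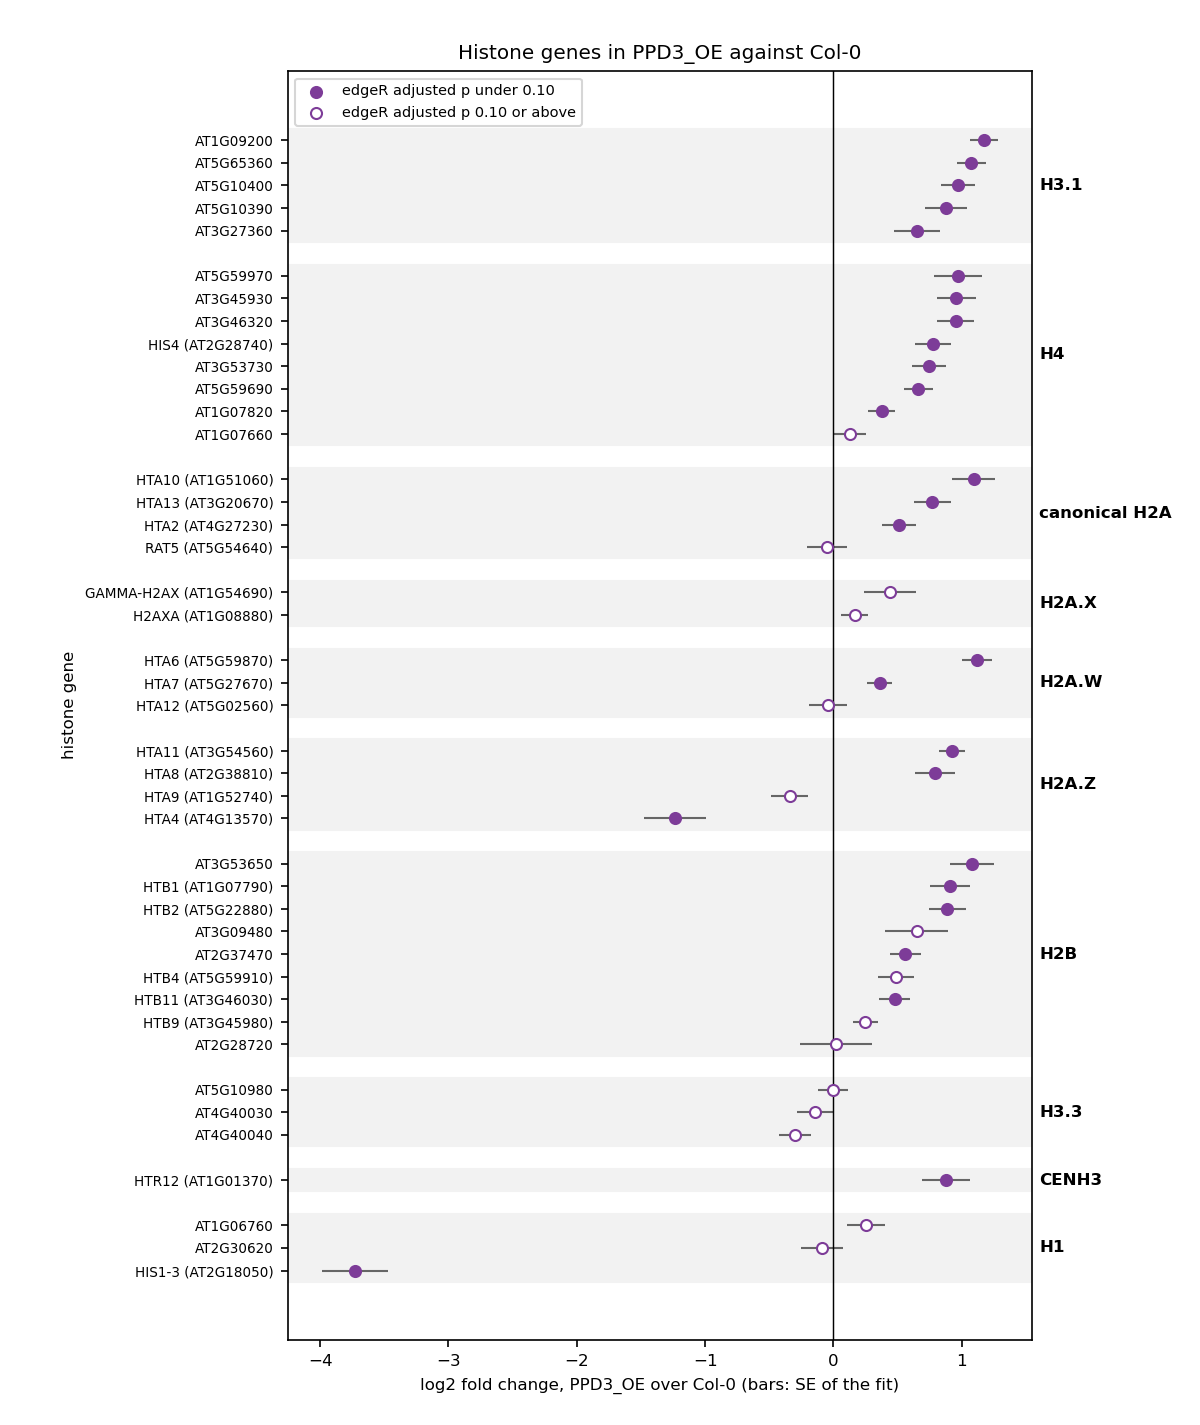
Log2 fold change (PPD3_OE over Col-0) with its standard error for each tested histone gene, grouped by class, from edgeR, with filled points for an adjusted p under 0.10 and open points otherwise. The H3.1 genes span 0.65 to 1.17, the H3.3 genes span -0.30 to -0.0034, and HIS1-3 lies at -3.73.

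The 3 H3.3 genes, which encode the H3 that replaces lost H3 outside of replication, had no positive log2 fold change, and none was called by edgeR or DESeq2. H3.3 differs from H3.1 at 4 residues between annotated proteins of equal length. Summed H3.3 was at 600.4 and 609.3 CPM in PPD3_OE plants, against 715.7 and 663.7 CPM in Col-0 plants, a ratio of 0.877. AT4G40040 was at 284 and 262 CPM in PPD3_OE plants and at 338 and 333 CPM in Col-0 plants (log2 fold change -0.30 ± 0.13, edgeR adjusted p = 0.184, DESeq2 adjusted p = 0.146). It was the H3.3 gene whose genotypes did not overlap, with both PPD3_OE plants below both Col-0 plants, and its promoter holds the octamer shown above. AT4G40030 was at 196 and 215 CPM in PPD3_OE plants and at 244 and 211 CPM in Col-0 plants (-0.15 ± 0.14, edgeR adjusted p = 0.498). AT5G10980 was at 121 and 133 CPM in PPD3_OE plants and at 133 and 121 CPM in Col-0 plants (-0.0034 ± 0.12, edgeR adjusted p = 0.987), with the genotypes fully interleaved. Without PPD3_OE plant 1 the last of these had a log2 fold change of 0.065, and without Col-0 plant 1 of 0.042.

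Set against H3.3 within each plant, the replication-dependent genes separated the genotypes further. Summed H3.1 was 0.478 and 0.528 of summed H3.3 in PPD3_OE plants, against 0.210 and 0.215 in Col-0 plants, a log2 difference of 1.24 (2.36-fold). Summed H4 was 0.754 and 0.803 of H3.3 in PPD3_OE plants, against 0.423 and 0.433 in Col-0 plants, a log2 difference of 0.86 (1.82-fold). The log2 difference was 0.92 for canonical H2A, 0.71 for H2B, 0.93 for H2A.W and 0.38 for H2A.X. All of these ratios were higher in both PPD3_OE plants than in both Col-0 plants. The exact permutation test, two-sided, gave p = 0.3333 for each, the smallest that 2 plants against 2 allow. H2A.Z over H3.3 overlapped between genotypes, with a log2 difference of 0.14 (exact permutation p = 0.6667). Per kilobase of exon, H3.1 genes held 44% and 46.2% of all H3 transcript level in PPD3_OE plants, against 26% and 26.5% in Col-0 plants. H3.3 genes held 55.5% and 53.4% in PPD3_OE plants and 73.8% and 73.2% in Col-0 plants. In order of level per kilobase, the 3 H3.3 genes stood above all other tested histone genes in Col-0 plants. In PPD3_OE plants the H4 gene AT5G59690, at 180.7 CPM per kb, and AT4G40040, at 180.5 CPM per kb, shared the top. In bulk tissue, more cells that express a gene and more RNA of it per cell cannot be told apart.

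**Figure D3:**
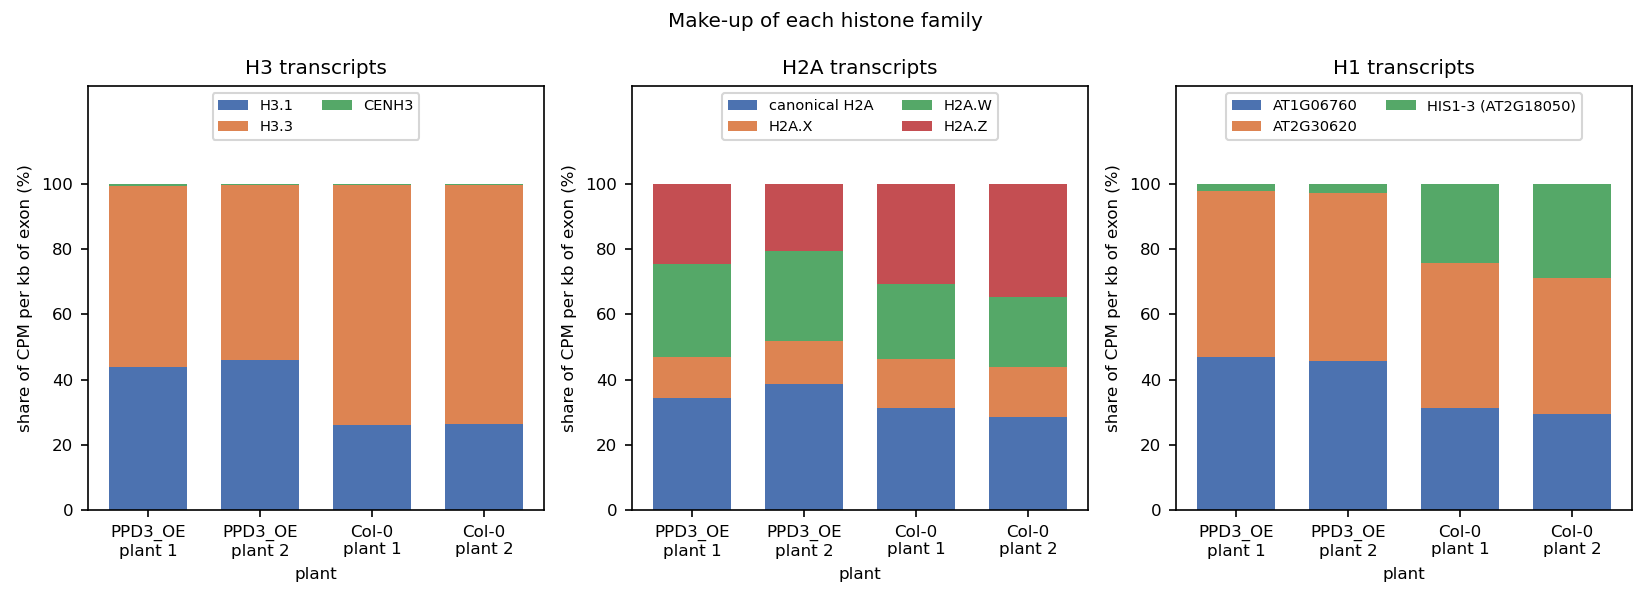
Share of each histone family's transcript level, in CPM per kilobase of exon, held by each variant in each plant, for the H3, H2A and H1 families. H3.1 takes 44% and 46.2% of H3 in PPD3_OE plants, against 26% and 26.5% in Col-0 plants, and HIS1-3 takes 2.35% and 2.70% of H1, against 24.3% and 28.7%.

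CENH3, encoded by HTR12 (AT1G01370), replaces H3 at centromeres. It was at 7.44 and 5.89 CPM in PPD3_OE plants and at 3.52 and 3.73 CPM in Col-0 plants, without overlap, a log2 fold change of 0.88 ± 0.19 (edgeR adjusted p = 0.0730, DESeq2 adjusted p = 0.0215). The fold of HTR12 was thus of the size found for H3.1, at a far lower level. In CPM per kilobase it made up 0.480% and 0.356% of H3 in PPD3_OE plants, against 0.255% and 0.292% in Col-0 plants.

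Canonical H2A, the S-phase partner of H2B, was mostly higher in PPD3_OE plants, with 3 of 4 genes called. The 4 genes summed to 176.6 and 214.5 CPM in PPD3_OE plants, against 121.7 and 112.3 CPM in Col-0 plants, a ratio of 1.67. HTA10, with the paired octamers shown above, was the most abundant of them, at 82.1 and 106 CPM in PPD3_OE plants and 46.4 and 41.5 CPM in Col-0 plants (log2 fold change 1.09 ± 0.17, edgeR adjusted p = 0.0618, DESeq2 adjusted p = 2.13e-05). HTA13 and HTA2 had log2 fold changes of 0.77 ± 0.14 and 0.51 ± 0.13. RAT5 (AT5G54640), known from mutants resistant to Agrobacterium transformation, was at 16.7 and 21.0 CPM in PPD3_OE plants and at 19.0 and 19.9 CPM in Col-0 plants (-0.05 ± 0.15, edgeR adjusted p = 0.844). Its Col-0 plants lay between its PPD3_OE plants, and without PPD3_OE plant 1 its log2 fold change was 0.11.

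The 9 tested H2B genes all had positive log2 fold changes, with a median of 0.56, and 5 were called higher by edgeR and 6 by DESeq2. All 11 H2B genes, the untested loci included, summed to 580.2 and 685.7 CPM in PPD3_OE plants, against 452.2 and 426.6 CPM in Col-0 plants, a ratio of 1.44. HTB4 (AT5G59910), the most abundant by CPM, was at 173 and 207 CPM in PPD3_OE plants and at 139 and 133 CPM in Col-0 plants. Its log2 fold change of 0.49 ± 0.14 had an edgeR adjusted p of 0.1004, just outside the threshold, and a DESeq2 adjusted p of 0.0442. HTB2, whose promoter with the hexamer is shown above, was at 123 and 150 CPM in PPD3_OE plants and at 77.3 and 70.7 CPM in Col-0 plants (0.89 ± 0.14, edgeR adjusted p = 0.0627). AT3G53650, a gene of low level, had the largest H2B fold, at 7.06 and 8.52 CPM in PPD3_OE plants and 3.60 and 3.76 CPM in Col-0 plants (1.08 ± 0.17, edgeR adjusted p = 0.0618, DESeq2 adjusted p = 0.00131). The others ranged from 0.25 ± 0.10 for HTB9 to 0.91 ± 0.16 for HTB1. AT2G28720 was the H2B gene that overlapped, at 39.4 and 67.6 CPM in PPD3_OE plants and 55.3 and 50.1 CPM in Col-0 plants (0.02 ± 0.28, edgeR adjusted p = 0.965). Its PPD3_OE plants lay on either side of the Col-0 plants, and its log2 fold change was -0.42 without PPD3_OE plant 2.

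The 3 H2A.W genes, whose product marks heterochromatin, did not move alike. HTA6 was at 94.1 and 102 CPM in PPD3_OE plants and at 47.5 and 42.6 CPM in Col-0 plants, a log2 fold change of 1.12 ± 0.12 (edgeR adjusted p = 0.0618, DESeq2 adjusted p = 4.87e-09). That fold is near those of AT1G09200 and HTA10, whose promoters also carry the octamer. It is also near that of the H2B gene AT3G53650 (1.08), whose promoter has no octamer. AT4G40040, with an octamer, was at -0.30. The part of the octamer in these folds was not tested. HTA7 was at 57.8 and 54.2 CPM in PPD3_OE plants and at 43.8 and 43.4 CPM in Col-0 plants (0.36 ± 0.10, edgeR adjusted p = 0.0952, DESeq2 adjusted p = 0.102). HTA12 was at 7.36 and 8.52 CPM in PPD3_OE plants and at 8.25 and 8.10 CPM in Col-0 plants (-0.04 ± 0.15, edgeR adjusted p = 0.858), with overlapping genotypes, and at 0.06 without PPD3_OE plant 1. Summed H2A.W was 159.3 and 164.3 CPM in PPD3_OE plants, against 99.58 and 94.15 CPM in Col-0 plants, a ratio of 1.67 that comes mostly from HTA6.

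The 2 H2A.X genes, whose product is phosphorylated beside DNA breaks, were not called. H2AXA (AT1G08880) was at 76.1 and 83.4 CPM in PPD3_OE plants and at 70.3 and 72 CPM in Col-0 plants (log2 fold change 0.16 ± 0.10, edgeR adjusted p = 0.328). GAMMA-H2AX (AT1G54690) was at 9.26 and 12.9 CPM in PPD3_OE plants and at 8.06 and 8.24 CPM in Col-0 plants (0.44 ± 0.20, edgeR adjusted p = 0.209). Its log2 fold change was 0.19 without PPD3_OE plant 2 and 0.66 without PPD3_OE plant 1. Both PPD3_OE plants were above both Col-0 plants for each gene, by little.

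The 4 H2A.Z genes split, with 2 called higher and 1 called lower by edgeR and by DESeq2, and their sum was nearly level. That sum was 141.3 and 128.3 CPM in PPD3_OE plants, against 131.0 and 148.0 CPM in Col-0 plants, a ratio of 0.967. HTA9, by far the most abundant, was at 91.8 and 78.9 CPM in PPD3_OE plants and at 99.0 and 117 CPM in Col-0 plants (log2 fold change -0.34 ± 0.15, edgeR adjusted p = 0.188). HTA11 was at 35.4 and 34.9 CPM in PPD3_OE plants and at 19.0 and 18.1 CPM in Col-0 plants (0.92 ± 0.10, edgeR adjusted p = 0.0618, DESeq2 adjusted p = 3.14e-06), a fold like that of H3.1. HTA8 was at 11.2 and 12.4 CPM in PPD3_OE plants and at 7.36 and 6.26 CPM in Col-0 plants (0.79 ± 0.15, edgeR adjusted p = 0.0679). HTA4 was at 3.0 and 2.07 CPM in PPD3_OE plants and at 5.57 and 6.38 CPM in Col-0 plants, 2.36-fold lower (-1.23 ± 0.24, edgeR adjusted p = 0.0680, DESeq2 adjusted p = 0.00415). Its counts were low, at 120 and 71 in PPD3_OE plants and 206 and 222 in Col-0 plants. It also overlaps a gene on the other strand, AT4G13564, as HTA9 overlaps AT1G52750, and libraries of this kit do not tell the strands apart. The same limit holds for HTA12, HTA13, GAMMA-H2AX, HTB9, AT1G06760 and AT2G30620, which also overlap genes on the other strand. Per kilobase, H2A.Z held 24.4% and 20.5% of H2A transcript level in PPD3_OE plants, against 30.7% and 34.7% in Col-0 plants. Canonical H2A held 34.5% and 38.7% in PPD3_OE plants and 31.4% and 28.6% in Col-0 plants, and H2A.W held 28.7% and 27.7% in PPD3_OE plants and 22.9% and 21.4% in Col-0 plants.

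Of the linker histones, H1.3 was called lower and neither main H1 gene was called. HIS1-3 was at 2.92 and 4.32 CPM in PPD3_OE plants and at 42.7 and 53.1 CPM in Col-0 plants. The means were 3.62 ± 0.988 CPM in PPD3_OE plants and 47.9 ± 7.31 CPM in Col-0 plants (SD, n = 2 each), 13.2-fold lower in PPD3_OE plants, with no overlap. The log2 fold change was -3.73 ± 0.26 (edgeR adjusted p = 0.0618, DESeq2 adjusted p = 5.46e-35), the largest in size among the 42 tested members. The counts behind it were 117 and 148 in PPD3_OE plants and 1580 and 1848 in Col-0 plants. AT1G06760, a main H1 gene with an octamer in its promoter, was at 69.8 and 87.4 CPM in PPD3_OE plants and at 66.6 and 65.3 CPM in Col-0 plants (0.25 ± 0.14, edgeR adjusted p = 0.284). AT2G30620, the other main H1 gene, was at 109 and 143 CPM in PPD3_OE plants and at 134 and 133 CPM in Col-0 plants (-0.09 ± 0.17, edgeR adjusted p = 0.735), and at 0.10 without PPD3_OE plant 1. HIS1-3 therefore held 2.35% and 2.70% of H1 transcript level per kilobase in PPD3_OE plants, against 24.3% and 28.7% in Col-0 plants. Among tested histone genes it stood at position 40 by level per kilobase in PPD3_OE plants and at position 20 in Col-0 plants.

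Of 6 genes known to respond to drought and abscisic acid, none of them a histone gene, all had negative log2 fold changes, with a median of -1.49, and 3 were called lower by edgeR and 5 by DESeq2. The shares of all genes called lower were 11.4% by edgeR and 9.65% by DESeq2. The summed level of the 6 genes was 492.5 and 451.6 CPM in PPD3_OE plants, against 1120 and 889.1 CPM in Col-0 plants. The phosphatase gene HAI1, a target of abscisic acid signalling, was at 2.12 and 1.84 CPM in PPD3_OE plants and at 12.2 and 20.2 CPM in Col-0 plants (-3.03 ± 0.31). The dehydrin gene RAB18 had a log2 fold change of -1.80 ± 0.34. KIN1, at 9.16 and 3.3 CPM in PPD3_OE plants and 8.68 and 9.16 CPM in Col-0 plants, overlapped and was called by neither tool, and RD29B (in the annotation LTI65) and COR15A were called by DESeq2 alone. The part of such a response in the difference of HIS1-3 was not tested.

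**Figure D4:**
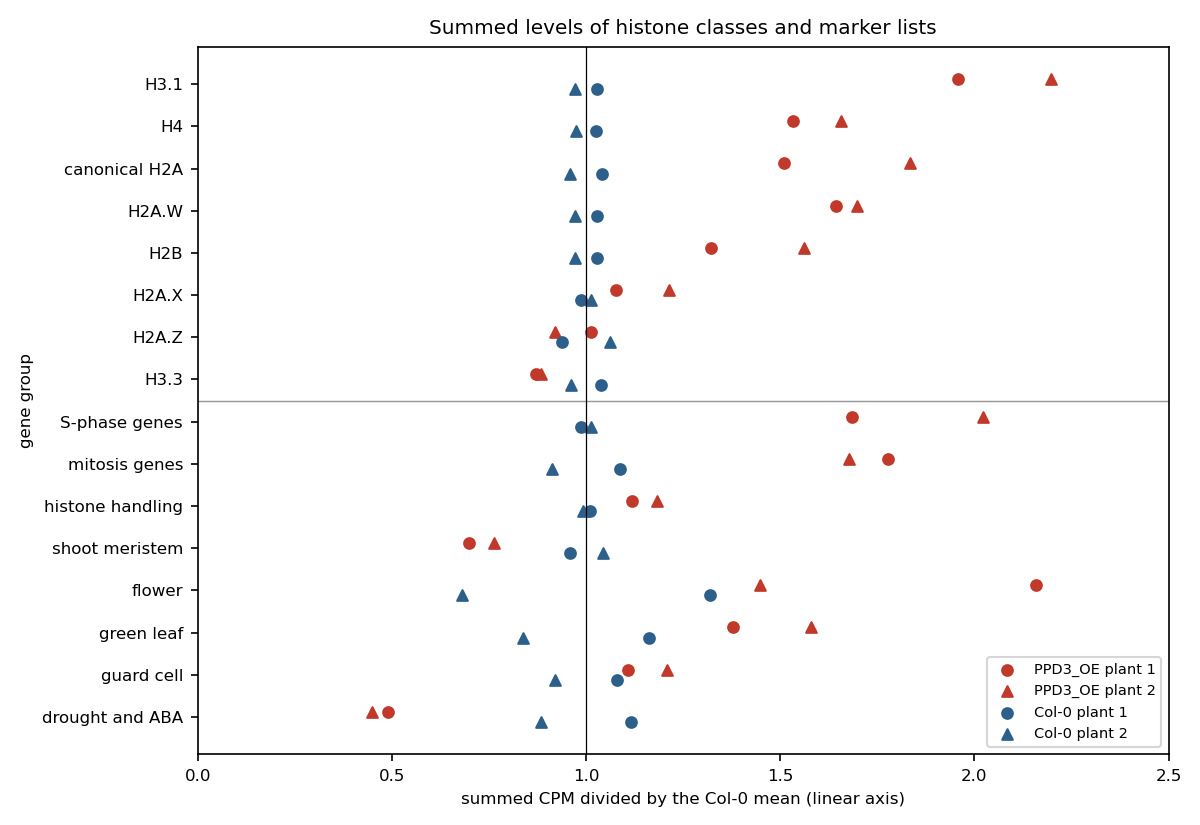
Summed TMM-scaled CPM of histone classes (upper part) and of marker lists (lower part) in each plant, divided by the mean of the Col-0 plants, on a linear axis from 0. The PPD3_OE plants lie right of the Col-0 plants for H3.1, H4 and the S-phase, mitosis and flower lists. They lie left of them for H3.3, the shoot meristem and the drought list.

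A list of 26 genes held genes that handle histones together with the transcription factor genes E2FA, E2FB, E2FC and DPA. Of the 26, 8 were called higher by edgeR, E2FC among them, and 4 by DESeq2. The shares of all genes called higher were 9.96% by edgeR and 8.35% by DESeq2. None of the 26 was called lower, and their median log2 fold change was 0.26. Those called include chaperones and enzymes that act at replication. ASF1B, a chaperone of H3 and H4, was at 13.4 and 13.4 CPM in PPD3_OE plants and at 7.95 and 7.53 CPM in Col-0 plants (0.79 ± 0.12, edgeR adjusted p = 0.0618). Its paralog SGA2, also named ASF1A, had a log2 fold change of -0.09 ± 0.13. CHR1, the remodeller DDM1 that is known to keep H2A.W in heterochromatin, was at 19.1 and 20.3 CPM in PPD3_OE plants and at 11.7 and 10.3 CPM in Col-0 plants (0.84 ± 0.13, edgeR adjusted p = 0.0618). FAS1, a subunit of the H3.1 chaperone CAF-1, had a log2 fold change of 0.62 ± 0.11 (edgeR adjusted p = 0.0642), and TSK, a reader of H3.1, had 0.68 ± 0.13 (edgeR adjusted p = 0.0678). ATXR6, a methyltransferase of H3.1, had 1.06 ± 0.28 (edgeR adjusted p = 0.0908). The list holds AT3G15880 as HIRA, the chaperone of H3.3, but the annotation gives that locus the symbol WSIP2. WSIP2 was at 115 and 111 CPM in PPD3_OE plants and at 114 and 104 CPM in Col-0 plants (0.05 ± 0.11, edgeR adjusted p = 0.752). These values are not taken here as those of HIRA, though the locus stays among the 26. PIE1, the catalytic subunit of H2A.Z exchange, had 0.01 ± 0.10, and SEF, also named SWC6, of the same complex, had -0.32 ± 0.17 (edgeR adjusted p = 0.262). Not every gene that acts on H3.1 was called: MSI1, another subunit of CAF-1, had 0.23 ± 0.11 (edgeR adjusted p = 0.238), and ATXR5, a methyltransferase related to ATXR6, had 0.01 ± 0.18 (edgeR adjusted p = 0.973).

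All 10 genes of a list of DNA replication genes stood higher in PPD3_OE plants without overlap, and edgeR and DESeq2 each called all 10. Beside them, 9.96% of all genes were called higher by edgeR and 8.35% by DESeq2. The median log2 fold change of the 10 was 0.82. The sliding clamp gene PCNA1 was at 23.5 and 25.5 CPM in PPD3_OE plants and at 11.7 and 11.3 CPM in Col-0 plants (1.09 ± 0.11). RNR1, a subunit of the enzyme that makes deoxynucleotides, was at 127 and 145 CPM in PPD3_OE plants and at 74.2 and 73.8 CPM in Col-0 plants (0.88 ± 0.12). All 8 genes of a mitosis list were called higher by both tools, with a median log2 fold change of 0.81, and summed to 150.9 and 142.4 CPM in PPD3_OE plants, against 92.33 and 77.46 CPM in Col-0 plants. The 5 markers of the shoot meristem stood at a sum of 95.94 and 104.9 CPM in PPD3_OE plants, against 131.7 and 143.4 CPM in Col-0 plants. Among these, STM (-0.96 ± 0.16) and KNAT1 (-1.13 ± 0.32) were called lower. CLV1, which makes up most of the sum, was at 73.9 and 73.0 CPM in PPD3_OE plants and 81.2 and 82.5 CPM in Col-0 plants and was not called (-0.16 ± 0.095, edgeR adjusted p = 0.312). WUS had 6 and 2 counts in PPD3_OE plants and 2 and 0 in Col-0 plants, and CLV3 had no count in any library. The 6 flower genes summed to 20.22 and 13.56 CPM in PPD3_OE plants and 12.36 and 6.376 CPM in Col-0 plants. All 6 had positive log2 fold changes, with a median of 0.89, and AP3 and PI overlapped between genotypes. The 4 guard cell genes summed to 51.69 and 56.36 CPM in PPD3_OE plants and 50.37 and 42.88 CPM in Col-0 plants, with a median of 0.29. No gene of either list was called by edgeR or DESeq2. The part of tissue makeup in the histone differences was not tested.

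The histone genes also divided by gene structure, which the choice of loci did not use. All 5 H3.1 genes, 7 of 8 H4 genes and all 11 H2B genes have a single exon in the annotation, 23 of 44 in all. The 21 tested genes with 1 exon all had positive log2 fold changes, with a median of 0.78, and 17 were called higher. The 21 tested genes with 2 or more exons had 12 positive and 9 negative values and a median of 0.16, and 8 were called higher and 2 lower. Structure varies within a class only for H4, where AT1G07660 has 2 exons and the smallest log2 fold change, 0.13. In the other classes structure and class coincide and cannot be told apart.

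Genes with the octamer were spread over H4, H3.1, H3.3, canonical H2A, H2A.W and H1. The 10 of them had a median log2 fold change of 0.87, with 9 positive and 7 called higher. The 32 tested genes without it had a median of 0.50, with 18 called higher and 2 lower. The 2 sets differ in their mix of histone classes, so octamer and class are not separated in these medians. The exceptions among genes with the octamer were AT4G40040 of H3.3 at -0.30, AT1G07660 of H4 at 0.13 and AT1G06760 of H1 at 0.25. The same 8 letters therefore stood before genes that differed between genotypes and before genes that were not called. The 10 tested genes with the hexamer had a median of 0.61, with 7 called higher, close to the median of 0.58 for the 32 without it, of which 18 were called higher and 2 lower. A further motif, TTTNGCGC or GCGCNAAA on the other strand, of the type bound by E2F factors, stood in 6 of 44 promoters (13.6%), against 262 of 27443 (0.955%). Those 6 genes had a median of 0.96, with 5 called higher. They include 2 H3.1 and 2 H4 genes, so motif and class are not separated in this median. The motif ACGTGNC or GNCACGT on the other strand, of the type found in promoters that respond to abscisic acid, stood in 7 of 44 promoters (15.9%), against 8.57% of all promoters. It can overlap the hexamer, and the promoter of HIS1-3 held no match to any of the 4 motifs in this window. A match is only a match of letters.

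**Figure D5:**
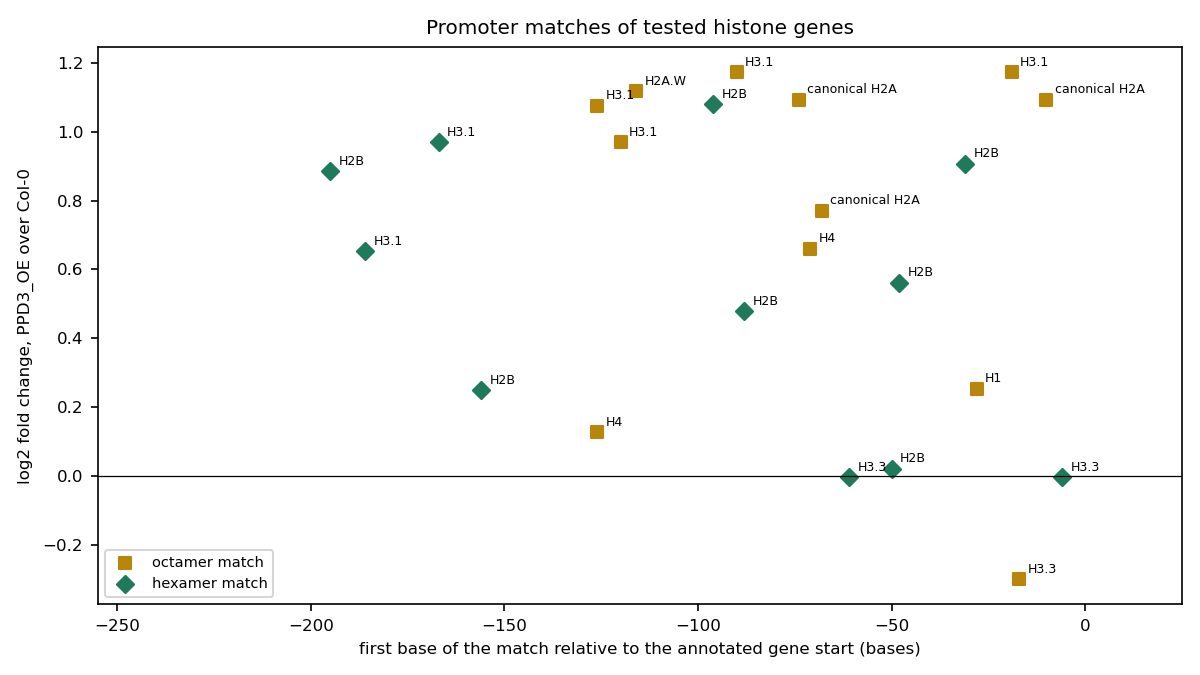
Log2 fold change (PPD3_OE over Col-0) of each tested histone gene with an octamer or hexamer match, against the first base of the match in the 250 bases before the annotated gene start, labelled by histone class; a gene with a pair of matches has a pair of points. Octamers begin between -126 and -10 bases, and their genes span -0.30 to 1.17.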

How the data were processed

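Polyadenylated RNA of 2 PPD3_OE and 2 Col-0 plants was sequenced as 150-bp single reads from a kit that does not mark strand, per the labels' protocols. The authors deposited whole-number counts of reads per gene, not normalized. Per the submitters' processing notes, the build TAIR10 and the tool DESeq2 were used; for the aligner and counter, the sources used here give no name. Rows that name no gene (0.713% to 0.941% of reads without a feature, 3.67% to 4.18% ambiguous, 4.18% to 5.61% not unique) stayed out of library sizes and tests.

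All 33977 gene rows entered edgeR 4.0.16 in R 4.3.3, with its default filter (minimum count 10, minimum total 15), TMM scaling, a quasi-likelihood test of genotype (residual degrees of freedom 2, median prior 2.353) and Benjamini-Hochberg adjustment over 19919 genes. DESeq2 1.42.0 and voom of limma 3.58.1 were alternatives. The scripts were tested on simulated data. CPM are relative to the TMM-scaled library, and levels between genes are per kilobase of exon. Annotation, exons and promoters came from RefSeq's TAIR10.1, matched by locus (32548 rows matched). Floors of 3 counts cover counting error only.

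Classes, lists and tests were chosen with earlier results of these data known. Genes given in full are the H3.3, CENH3 and H1 genes and, in every other class, the most abundant, that with the smallest p and that most against its class, with PPD3 and up to 2 genes per direction of the handling and replication lists. Others were chosen after their values were seen. The main fit did not pair plants by replicate number.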

Additional observations from a re-analysis of the deposited data

How the results depend on the processing

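Members called higher numbered 0 at edgeR's adjusted p of 0.05 under DESeq2's size factors, library size alone, both filters, edgeR's earlier quasi-likelihood method, voom, and in each fit without one plant (0 to 0). They numbered 22 by DESeq2 and 25 at an adjusted p of 0.10, and members called lower numbered 2 and 2. At 0.10 edgeR called 26 members and 2007 of all genes higher with DESeq2's size factors, and 21 and 1774 with library size alone. Fits without one plant, chosen after seeing the data, gave 0 to 16 members higher and 0 to 2 lower at 0.10, and 3 to 20 higher and 1 to 2 lower by DESeq2. With so few residual degrees of freedom a lost call does not show that values were alike. Plants with the same number tended to deviate in opposite directions (r = -0.364 over genes), and the main fit did not pair plants by number. The source of this opposite deviation was not tested. A fit with the replicate block called 0 members at 0.05 and 0 in each direction at 0.10. Crossing the numbers in the block, chosen after seeing the data, called 3 members higher and 1 lower at 0.05, beside 46 and 206 of all genes. Single genes near no difference changed sign. AT2G28720 was at -0.021 with library size alone, -0.0063 without a filter, -0.0073 with at least 5 CPM in 2 libraries, -0.025 with voom, -0.028 with the replicate block and -0.418 to 0.362 without one plant. Without one plant, AT5G10980 ranged from -0.093 to 0.065, AT5G54640 from -0.224 to 0.111, AT5G02560 from -0.150 to 0.062 and AT2G30620 from -0.295 to 0.097. The cause was not tested. The log2 difference of H3.1 to H3.3 was 1.1 and that of H4 to H3.3 0.987 as medians over copies, against 1.24 and 0.862 from sums, and 1.17 to 1.31 and 0.817 to 0.908 without one plant. Across alternatives, class medians of log2 fold change ranged from 0.68 to 0.89 for H4, 0.90 to 1.06 for H3.1, -0.27 to -0.06 for H3.3, 0.14 to 0.45 for H2A.X (lowest without PPD3_OE plant 2), 0.32 to 0.74 for H2A.W (highest with copies summed), -0.05 to 0.24 for H2A.Z and -0.29 to 0.10 for H1. The H1 median changed sign. H2A.Z fell below 0 only with copies summed, which is not a median over genes, and the other 8 classes kept their sign. Scaling moved the median of all genes by less than 0.1. Summing the copies of a class gives no count of members.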

Other observations

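The annotation names further histone-fold genes outside the 44. HTR11 (AT5G65350), annotated as histone 3 11, was at 2.75 and 2.13 CPM in PPD3_OE plants and at 1.65 and 1.01 CPM in Col-0 plants, a log2 fold change of 0.87 ± 0.32 that edgeR did not call (adjusted p = 0.150). AT5G50930 was at 2.60 and 2.77 CPM in PPD3_OE plants and at 1.92 and 2.18 CPM in Col-0 plants (0.39 ± 0.19, edgeR adjusted p = 0.229). AT1G13370, with 15 and 9 counts in PPD3_OE plants and 1 and 10 in Col-0 plants, overlapped between genotypes (1.04 ± 0.89). AT5G19490, at 1.22 and 0.99 CPM in PPD3_OE plants and 0.97 and 1.06 CPM in Col-0 plants, also overlapped (0.13 ± 0.25). The male-gamete H3 gene MGH3 and AT5G12910 had no count in any library.

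Between the plants of 1 genotype, histone genes differed most within PPD3_OE. The median of plant 1 minus plant 2 over tested members was -0.19 on the log2 scale in PPD3_OE and 0.05 in Col-0, beside -0.03 and 0.003 over all genes tested.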
